A study of Mus musculus with 9 samples.

Results

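The 10 genes described here are 7 Toll-like receptor genes (Tlr1, Tlr2, Tlr4, Tlr7, Tlr8, Tlr9 and Tlr13), the genes of the co-receptors CD14 and MD-2 (Cd14 and Ly96) and the gene of the adaptor MyD88 (Myd88). They were given as a list of names, drawn up with earlier results of these data known, from 22136 genes in all, and all 10 are in the files. RNA was sequenced in bulk from CD45+ cells, the immune cells of a tumor, sorted from subcutaneous allografts of YUMM 2.1, a mouse melanoma line, in immunocompetent C57BL/6J mice. The mice were given anti-B7-H3 antibody (3 libraries), anti-PD1 antibody (3 libraries) or control IgG (3 libraries) once the tumors had reached 20 to 50 mm3. B7-H3 is a surface protein of the B7 family found on tumor cells and some immune cells, and PD1 is an inhibitory receptor of T cells. All 3 groups carried the same tumor line in the same strain. The age of the mice, and whether the replicates of a group were separate animals, are not stated in the labels, so that p-values measure the spread between these libraries, which may be technical. The series' design also names the combination of both antibodies, which was not analysed here.

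Toll-like receptors are membrane proteins that bind parts of microbes or of damaged cells with an ectodomain of leucine-rich repeats, and signal through a TIR domain on the cytosolic side. Those of the cell surface, such as TLR1, TLR2 and TLR4, bind lipids and lipoproteins, and those of endosomes, such as TLR7, TLR8, TLR9 and TLR13, bind nucleic acids. CD14 hands lipopolysaccharide to the complex of TLR4 with MD-2 and also aids other receptors of the family. All of the receptors named above recruit MyD88, whose kinases release NF-kB and switch on cytokine genes. In tumors the receptors are carried mainly by macrophages, monocytes, neutrophils and dendritic cells, while CD14 is best known as a marker of monocytes and macrophages.

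Tlr2 had several-fold more RNA in the immune cells of tumors treated with either antibody, and so did Cd14, which passed the test with anti-PD1 only. Myd88, Tlr1, Tlr4, Ly96 and the tested endosomal receptors did not pass the test against IgG control. Of the 10 genes, 9 had enough counts to be tested across 13178 genes, and Tlr9 did not. With anti-B7-H3 against IgG control, 1 of the 9 (Tlr2) passed the test and was higher, beside 0.827% of all tested genes called higher and 0.0228% called lower (edgeR's quasi-likelihood test, p adjusted by Benjamini and Hochberg over all tested genes, threshold 0.05). With anti-PD1 against IgG control, 2 of the 9 (Tlr2 and Cd14) were higher, beside 1.72% of all tested genes called higher and 0.0152% called lower. With anti-B7-H3 against anti-PD1 none of the 9 was called, beside 0% of all genes called higher and 0% called lower. In that last comparison an unadjusted p under 0.05 was reached by 425 genes (3.23%) and by 0 of the 9, while DESeq2 called 6 genes higher and 12 lower and limma-voom called 0 higher and 2 lower. Both comparisons with IgG control use the same 3 control libraries.

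Counted by overlap, 5 of the 9 genes had every anti-B7-H3 library above every IgG control library (Tlr2, Tlr4, Tlr8, Tlr13 and Cd14), beside 9.96% of all tested genes, and 1 was lower in each (Ly96), beside 5.49%. With anti-PD1, 5 of the 9 had every library above every control library (Tlr2, Tlr4, Tlr7, Tlr13 and Cd14), beside 9.99% of all tested genes, and 0 were lower, beside 6.52%. Between the antibodies, 0 of the 9 had all anti-B7-H3 libraries above all anti-PD1 libraries, beside 7.13% of all tested genes, and 4 were lower (Tlr2, Tlr7, Cd14 and Ly96), beside 6.4%. The median log2 fold change of the 9 genes was 2.11 for anti-B7-H3 and 2.39 for anti-PD1 against IgG control, and -0.12 between the antibodies. Over all tested genes the medians were 0.02, -0.04 and 0.04. These counts and medians are descriptions, since Tlr4, Tlr7, Tlr8 and Tlr13 passed the filter on low counts mainly through the libraries where they were high.

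**Figure D1:**
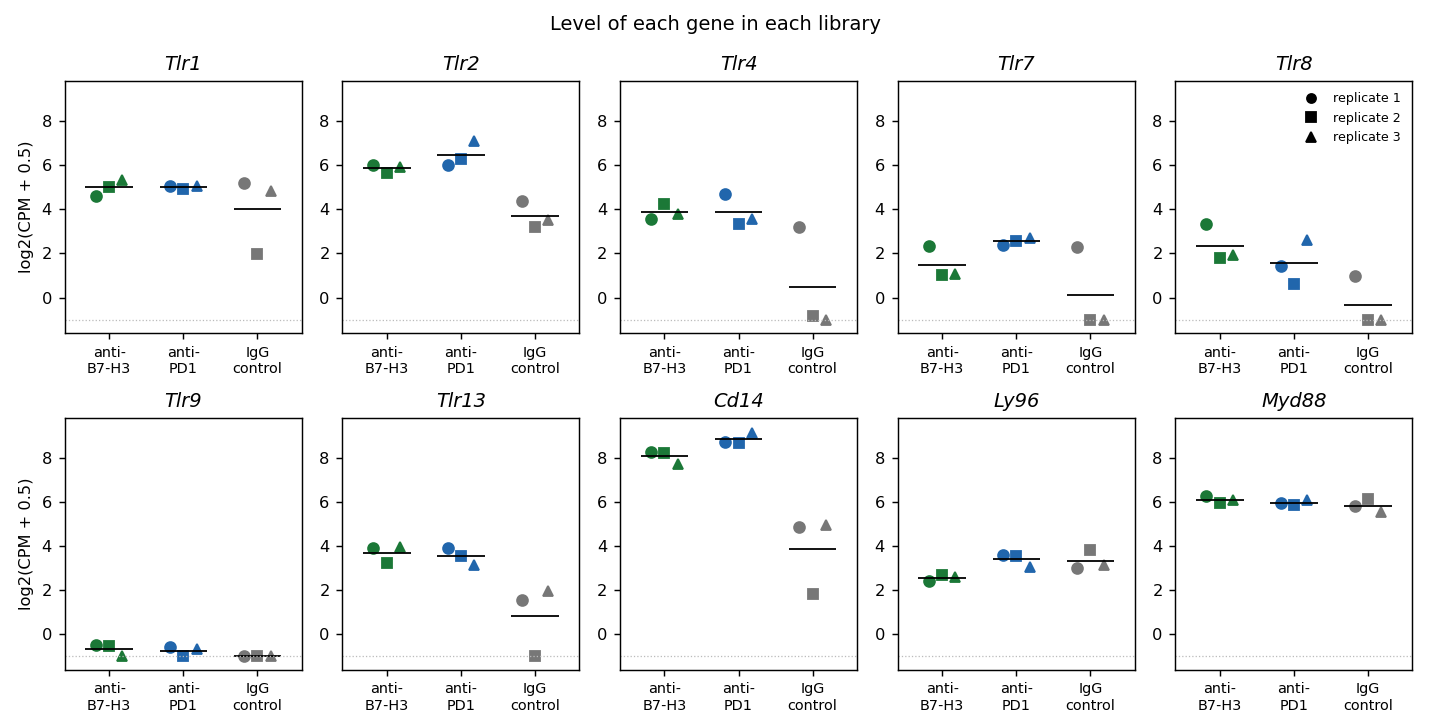
Level of each of the 10 genes in each library, as log2 of CPM (estimated counts scaled to a common total, on TMM-scaled library totals) plus 0.5, with anti-B7-H3 in green, anti-PD1 in blue and IgG control in gray. Marker shapes are replicates 1 to 3, black lines are group means and the dotted line is a count of 0. Tlr2 and Cd14 stood above the controls in all 6 antibody libraries, and Tlr4, Tlr7 and Tlr8 were at or near 0 in IgG control 2 and 3.

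Library totals ran from 14487012 to 31533106 estimated counts, and 3 counts, taken as the detection floor, were worth 0.0925 to 0.223 CPM in a library on the TMM-scaled totals used for all CPM values here. A pair of libraries stood apart on the principal components of log2 CPM. IgG control 2 lay at 191.87 on the first component (35.9% of the variance) and had 1896 of the tested genes at 0. Anti-PD1 3 lay at -149.18 on the next component (18.5%) and had 1248 of them at 0, while the other 7 libraries had 224 to 822. Ptprc, which encodes CD45, held 1718 to 2411 CPM in the antibody libraries and 1871 to 2913 CPM in the IgG control libraries, and the sum of 7 melanoma markers was at most 14.1 CPM in any library. The sum of 6 fibroblast markers was 9.6 to 29.7 CPM in antibody libraries and 0.495 to 1.4 CPM in IgG control libraries. The sum of 5 erythroid markers was 2.03 to 30.2 CPM in antibody libraries and 70.3, 7.49 and 435 CPM in IgG control 1, 2 and 3.

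Windows of 250 bases before the RefSeq transcription start (GRCm38.p6) were at hand for 6 of the 10 genes (Tlr1, Tlr2, Tlr8, Tlr9, Tlr13 and Myd88), and Tlr4, Tlr7, Ly96 and Cd14 are named only. The windows of 4 genes are shown. Tlr2 passed the test with both antibodies, Tlr8 and Tlr13 were higher without overlap with anti-B7-H3, and Myd88 overlapped with the controls in both comparisons, so that the set holds genes of either kind. Capitals mark matches on either strand to the kB consensus, to the core GAGGAA bound by PU.1, or to the C/EBP form TTGCNNAA; the AP-1 form TGANTCA had no match in these 4.
Tlr2, chr3:83841609-83841858, minus strand: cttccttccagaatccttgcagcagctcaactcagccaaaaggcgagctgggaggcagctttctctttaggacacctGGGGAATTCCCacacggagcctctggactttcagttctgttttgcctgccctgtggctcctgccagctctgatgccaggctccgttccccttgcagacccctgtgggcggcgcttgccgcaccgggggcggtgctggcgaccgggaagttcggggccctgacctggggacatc
Tlr8, chrX:167264330-167264579, minus strand: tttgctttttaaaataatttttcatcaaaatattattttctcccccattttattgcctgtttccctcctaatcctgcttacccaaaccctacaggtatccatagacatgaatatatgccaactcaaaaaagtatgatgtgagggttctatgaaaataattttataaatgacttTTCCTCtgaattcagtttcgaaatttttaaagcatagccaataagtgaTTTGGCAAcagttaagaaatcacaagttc
Tlr13, chrX:106143025-106143274, plus strand: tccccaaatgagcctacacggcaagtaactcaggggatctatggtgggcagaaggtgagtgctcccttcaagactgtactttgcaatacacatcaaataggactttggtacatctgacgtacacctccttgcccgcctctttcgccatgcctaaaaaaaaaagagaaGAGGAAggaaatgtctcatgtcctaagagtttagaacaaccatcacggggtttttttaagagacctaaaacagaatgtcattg
Myd88, chr9:119340019-119340268, minus strand: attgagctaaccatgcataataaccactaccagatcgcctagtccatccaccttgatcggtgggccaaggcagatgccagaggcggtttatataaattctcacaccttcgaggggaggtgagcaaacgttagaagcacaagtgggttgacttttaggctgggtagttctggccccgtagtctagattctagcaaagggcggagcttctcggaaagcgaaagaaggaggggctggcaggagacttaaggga
The kB consensus matched at 173 and 172 bases before the start of Tlr2, as overlapping matches on the same palindrome. Of 32817 RefSeq windows of this length, 4.99% held it. This form replaced a narrower one after the windows had been read, so that the share is no test of the match in Tlr2. GAGGAA matched at 83 bases before the start of Tlr13 and, as TTCCTC on the opposite strand, at 77 bases before that of Tlr8, with 23.3% of all windows holding it. The C/EBP form matched at 29 bases before the start of Tlr8, as in 9.57% of all windows. The Myd88 window held none of the 4 motifs. Of the windows not shown, 1 of 2 for Tlr1, which has a pair of RefSeq starts, held GAGGAA at 23 bases and the other held none of the motifs. Tlr9 held GAGGAA at 112 bases and the AP-1 form (6.75% of all windows) at 58 bases before the start. No match overlapped that of another motif. RefSeq's start lies inside the GENCODE span of Tlr1 (both starts), Tlr2, Tlr13 and Myd88, so that these windows lie partly or wholly within the annotated gene. A match of letters is a description of the window and not evidence of binding.

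Levels of different genes can be compared only per length, and for this the deposited TPM (transcript levels scaled for effective length and depth) of the longest listed transcript of each gene was used. In anti-B7-H3 libraries Cd14 was highest, at 145 ± 24.0 TPM (SD, n = 3), and Myd88 came next at 45.3 ± 5.96 TPM. Tlr2 followed at 13 ± 2.29 TPM. Its libraries lay just above those of Ly96 (5.91 to 11.3 TPM), whose range overlapped that of Tlr1 (4.35 to 10.2 TPM). Tlr4 averaged 3.10 ± 1.11 TPM and Tlr13 2.25 ± 0.669 TPM, and their ranges overlapped. The endosomal receptors Tlr8 (0.740 ± 0.341 TPM) and Tlr7 (0.393 ± 0.189 TPM) came lower still, again with overlapping ranges, and Tlr9 averaged 0.0222 ± 0.0194 TPM.

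In anti-PD1 libraries the order was the same down to Tlr13, with Cd14 at 249 ± 52.8 TPM, Myd88 at 41.1 ± 3.81 TPM and Tlr2 at 21.4 ± 10.1 TPM. The ranges of Tlr2 (14.2 to 32.9 TPM) and Ly96 (11.8 to 19.6 TPM) overlapped there, as did those of Tlr7 and Tlr8 and of Tlr4 and Tlr13. In IgG control libraries the order was another one, led by Myd88 at 40.7 ± 12.7 TPM and Ly96 at 17.3 ± 7.29 TPM. Cd14 averaged 11.6 ± 8.65 TPM there, in a range that overlapped those of Ly96 and of Tlr1 (0.890 to 10.2 TPM). Tlr2 averaged 3.40 ± 2.04 TPM in the controls, within the range of Tlr1.

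The 7 receptors together held 21.7, 25.9 and 32.9 TPM in anti-B7-H3 libraries, 30.3, 28.6 and 46.8 TPM in anti-PD1 libraries, and 20.0, 3.19 and 8.10 TPM in IgG control libraries. All 6 antibody libraries were above the 3 controls, although anti-B7-H3 1 exceeded IgG control 1 by little. With Tlr3, Tlr6 and Tlr12 added, anti-B7-H3 1 held 24.6 TPM and was below IgG control 1, at 25.6 TPM. Tlr5 and Tlr11 could not be added, since their longest transcripts were at 0 TPM in every library although both genes had counts.

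Tlr2 (chromosome 3, 83836272 to 83841767, minus strand, GENCODE M21 on GRCm38) encodes the receptor of bacterial lipoproteins, which pairs with TLR1 or TLR6. It had 62.8, 48.9 and 60.0 CPM in anti-B7-H3 libraries, 63.6, 75.7 and 137 CPM in anti-PD1 libraries, and 20.3, 8.60 and 10.9 CPM in IgG control libraries. Every antibody library was above every control library, and anti-PD1 3 was the highest of all. It rose by 2.11 ± 0.38 on the log2 scale with anti-B7-H3 (± SE, 4.30-fold, edgeR adjusted p = 0.0270) and by 2.79 ± 0.39 with anti-PD1 (6.92-fold, adjusted p = 0.00476). With anti-PD1 the call held with each library left out in turn. With anti-B7-H3 the call was lost without IgG control 2 or 3, without anti-B7-H3 1, 2 or 3, or without anti-PD1 2 (edgeR adjusted p = 0.0541 to 0.101). The log2 value stayed between 1.88 and 2.57 over the 9 libraries left out in turn. This call was also lost with limma-voom (1.85, adjusted p = 0.105), and it held with DESeq2 (2.12, adjusted p = 1.29e-05).

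Tlr1 (chromosome 5, 64924679 to 64933563, minus strand), the partner of TLR2 for triacylated lipoproteins, did not pass the test. It had 24.0, 31.7 and 39.8 CPM in anti-B7-H3 libraries, 32.6, 29.6 and 33.1 CPM in anti-PD1 libraries, and 36.5, 3.40 and 27.9 CPM in IgG control libraries. Only IgG control 2 was low, and IgG control 1 and 3 lay within the antibody range. The log2 fold change was 0.49 ± 0.62 for each antibody against IgG control (95% interval -0.88 to 1.87 for anti-B7-H3 and -0.88 to 1.86 for anti-PD1, edgeR adjusted p = 0.907 and 0.839). Without IgG control 2 and anti-PD1 3 together it turned to -0.02 for anti-B7-H3 and -0.05 for anti-PD1. Of the runs of 31 bases in the coding sequence of Tlr1, 603 of 2355 (25.6%) also occur in Tlr6, its neighbor in the family, so that reads could be split between these genes by the authors' quantification. No other gene of the 10 shared such a run with a Toll-like receptor gene. Per TPM, Tlr2 exceeded Tlr1 in all 6 antibody libraries (1.53 to 2.65 times with anti-B7-H3 and 1.98 to 4.20 times with anti-PD1), whereas in IgG control 1, 2 and 3 the ratio was 0.565, 2.57 and 0.399.

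Cd14 (chromosome 18, 36725067 to 36726798, minus strand), the co-receptor gene, had 305, 295 and 209 CPM in anti-B7-H3 libraries, 412, 403 and 552 CPM in anti-PD1 libraries, and 28.1, 3.03 and 30.2 CPM in IgG control libraries. All antibody libraries were far above the controls, all anti-PD1 libraries were above all anti-B7-H3 libraries, and IgG control 2 was far below the other controls. The gene rose by 4.48 ± 0.73 on the log2 scale with anti-PD1 (22.3-fold, edgeR adjusted p = 0.0201). This call was lost without IgG control 1 or 3 or without anti-PD1 1, 2 or 3 (edgeR adjusted p = 0.0559 to 0.0665). With anti-B7-H3 the log2 fold change was 3.72 ± 0.70 (13.2-fold, 95% interval 2.12 to 5.32) and missed the threshold (unadjusted p = 0.000565, edgeR adjusted p = 0.0595). Without IgG control 2, the lowest library, it was 3.23 and passed (edgeR adjusted p = 0.000649), as it did with DESeq2 (3.74, adjusted p = 3.17e-08) and with limma-voom (3.68, adjusted p = 0.00669). It missed the threshold with each of the other 8 libraries left out in turn (edgeR adjusted p = 0.115 to 0.206), without the filter on low counts (0.239) and with only the 6 libraries compared (0.184).

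**Figure D2:**
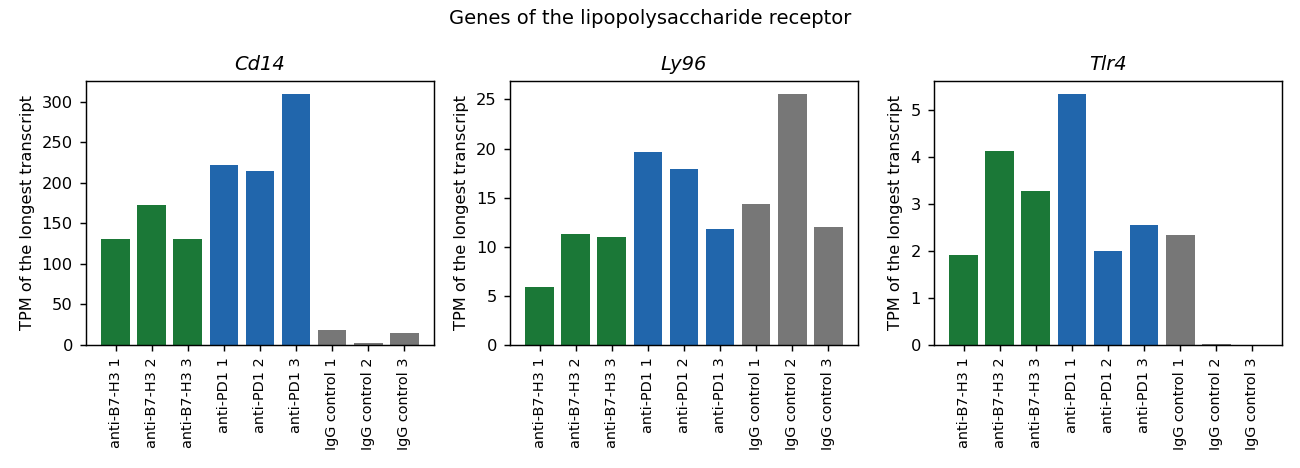
TPM of the longest listed transcript of Cd14, Ly96 and Tlr4, the genes of the lipopolysaccharide receptor, in each library (bars from 0, 1 bar a library, separate scales), with anti-B7-H3 in green, anti-PD1 in blue and IgG control in gray. Cd14 was low in all 3 controls, Ly96 was not, and Tlr4 was near or at 0 in IgG control 2 and 3 only.

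Tlr4 (chromosome 4, 66827584 to 66930284, plus strand), the signaling receptor for lipopolysaccharide, had 11.1, 18.3 and 13.4 CPM in anti-B7-H3 libraries and 25.7, 9.54 and 11.3 CPM in anti-PD1 libraries. In IgG control libraries it had 8.77, 0.0619 and 0 CPM, which were 175, 1 and 0 counts. The controls thus fell into a library near the antibody range and a pair at or under the floor of 3 counts. With this spread the log2 fold changes of 2.27 ± 1.54 with anti-B7-H3 (95% interval -1.23 to 5.77, edgeR adjusted p = 0.776) and 2.39 ± 1.54 with anti-PD1 (-1.13 to 5.90, adjusted p = 0.659) did not pass. Without IgG control 1 both passed, with fitted log2 values of 8.74 for anti-B7-H3 and 8.86 for anti-PD1 against 1 count and 0 counts in the remaining controls (edgeR adjusted p = 0.00600 and 0.00376).

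Ly96 (chromosome 1, 16688051 to 16709611, plus strand), whose product MD-2 holds the lipid in the TLR4 complex, did not pass the test with either antibody. It had 4.82, 5.96 and 5.55 CPM in anti-B7-H3 libraries, 11.6, 11.2 and 7.69 CPM in anti-PD1 libraries, and 7.47, 13.8 and 8.25 CPM in IgG control libraries. Each anti-B7-H3 library was below every other library, and IgG control 2, which was lowest for Cd14 and Tlr1, was highest for Ly96. The log2 fold changes were -0.85 ± 0.44 with anti-B7-H3 (95% interval -1.83 to 0.13, edgeR adjusted p = 0.649) and 0.05 ± 0.44 with anti-PD1 (-0.92 to 1.01, adjusted p = 0.983). The sign of the anti-PD1 value is not settled, since it took -0.08 with unscaled library totals. Per TPM, the ratio of Cd14 to Ly96 was 22.0, 15.3 and 12.0 in anti-B7-H3 libraries and 11.3, 12.0 and 26.3 in anti-PD1 libraries, against 1.30, 0.0738 and 1.18 in IgG control libraries.

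Tlr13 (chromosome X, 106143204 to 106160493, plus strand) encodes the endosomal receptor of bacterial ribosomal RNA, which mice have and humans lack. It had 14.6, 8.92 and 14.8 CPM in anti-B7-H3 libraries, 14.6, 11.2 and 8.31 CPM in anti-PD1 libraries, and 2.46, 0 and 3.37 CPM in IgG control libraries. All antibody libraries were above all controls. The log2 fold changes of 2.71 ± 1.02 with anti-B7-H3 (95% interval 0.45 to 4.96) and 2.54 ± 1.02 with anti-PD1 (0.30 to 4.78) had unadjusted p-values of 0.0231 and 0.0298 and did not pass (edgeR adjusted p = 0.453 and 0.386). Over the other settings and libraries left out, the adjusted p-values ran from 0.0663 to 0.761 with anti-B7-H3 and from 0.0556 to 0.646 with anti-PD1.

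Tlr8 (chromosome X, 167242696 to 167264329, minus strand), a receptor of RNA fragments in human cells with a less clear role in mice, was low throughout. It had 9.42, 2.93 and 3.30 CPM in anti-B7-H3 libraries, 2.23, 1.04 and 5.56 CPM in anti-PD1 libraries, and 1.50, 0 and 0 CPM in IgG control libraries. Anti-B7-H3 libraries were above all controls, and anti-PD1 2 was below IgG control 1. The log2 fold changes of 3.35 ± 1.65 with anti-B7-H3 (95% interval -0.30 to 7.00, edgeR adjusted p = 0.611) and 2.53 ± 1.60 with anti-PD1 (-1.0 to 6.06, adjusted p = 0.636) did not pass. They moved with single libraries. Without IgG control 1 the fitted values were 9.94 for anti-B7-H3 and 9.14 for anti-PD1, against controls at 0 counts, and without anti-PD1 3 the anti-PD1 value was 1.68. None of these passed.

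Tlr7 (chromosome X, 167304929 to 167330558, minus strand), the neighboring gene on the X chromosome and a receptor of single-stranded RNA, had 4.53, 1.52 and 1.60 CPM in anti-B7-H3 libraries and 4.74, 5.40 and 5.97 CPM in anti-PD1 libraries. In IgG control libraries it had 4.46, 0 and 0 CPM. The anti-PD1 libraries were close to each other and all above the rest, but IgG control 1 was nearly as high. The log2 fold changes were 0.76 ± 1.61 with anti-B7-H3 (95% interval -2.78 to 4.31, edgeR adjusted p = 0.950) and 1.84 ± 1.64 with anti-PD1 (-1.78 to 5.46, adjusted p = 0.763). Without IgG control 1 the remaining controls held 0 counts, and the anti-PD1 value passed (edgeR adjusted p = 0.0342) with a fitted fold that is no bound.

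Tlr9 (chromosome 9, 106222598 to 106226883, plus strand), the receptor of unmethylated CpG DNA in plasmacytoid dendritic cells and B cells among others, was barely detected. It had 3, 6 and 0 counts in anti-B7-H3 libraries, 5, 0 and 3 counts in anti-PD1 libraries and 0 counts in each IgG control library. A count of 0 in a control library allows up to 0.150 to 0.186 CPM. No fold is given, since most libraries were at or under the floor, and a difference was not detectable at this depth. The sum of 8 B cell markers was highest in anti-B7-H3 1 (506 CPM), and the other anti-B7-H3 libraries held 58.3 and 112 CPM, anti-PD1 libraries 47.2 to 129 CPM and IgG control libraries 26.0 to 89.4 CPM. The sum of 7 plasmacytoid dendritic cell markers was 127 to 215 CPM in anti-B7-H3 libraries, 123 to 181 CPM in anti-PD1 libraries and 118 to 193 CPM in IgG control libraries. The part of these cells in the Tlr9 counts was not tested.

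Myd88 (chromosome 9, 119335934 to 119341411, minus strand), the adaptor shared by all receptors above, had the smallest spread of the 10 genes over the 9 libraries (an SD of 0.20 on the log2 scale). It had 76.7, 61.8 and 66.3 CPM in anti-B7-H3 libraries, 61.2, 56.8 and 66.5 CPM in anti-PD1 libraries, and 56.2, 68.8 and 45.5 CPM in IgG control libraries. The groups overlapped through IgG control 2, which was within the antibody range, while IgG control 1 and 3 lay below every antibody library. The log2 fold change was 0.26 ± 0.21 with anti-B7-H3 (95% interval -0.20 to 0.73, edgeR adjusted p = 0.827) and 0.11 ± 0.21 with anti-PD1 (-0.36 to 0.58, adjusted p = 0.905). The anti-PD1 value was -0.01 with unscaled totals and -0.02 without IgG control 3, so that it has no settled sign. Exons of Acaa1a on the opposite strand overlap those of Myd88, and the kits do not mark the strand. Of the 915 runs of 31 bases in the coding sequence of Myd88, 0 occur on either strand in that of another listed gene. The ratio of Cd14 to Myd88 in TPM was 3.28, 3.86 and 2.54 in anti-B7-H3 libraries and 5.39, 5.75 and 6.89 in anti-PD1 libraries, against 0.424, 0.0367 and 0.532 in IgG control libraries.

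**Figure D3:**
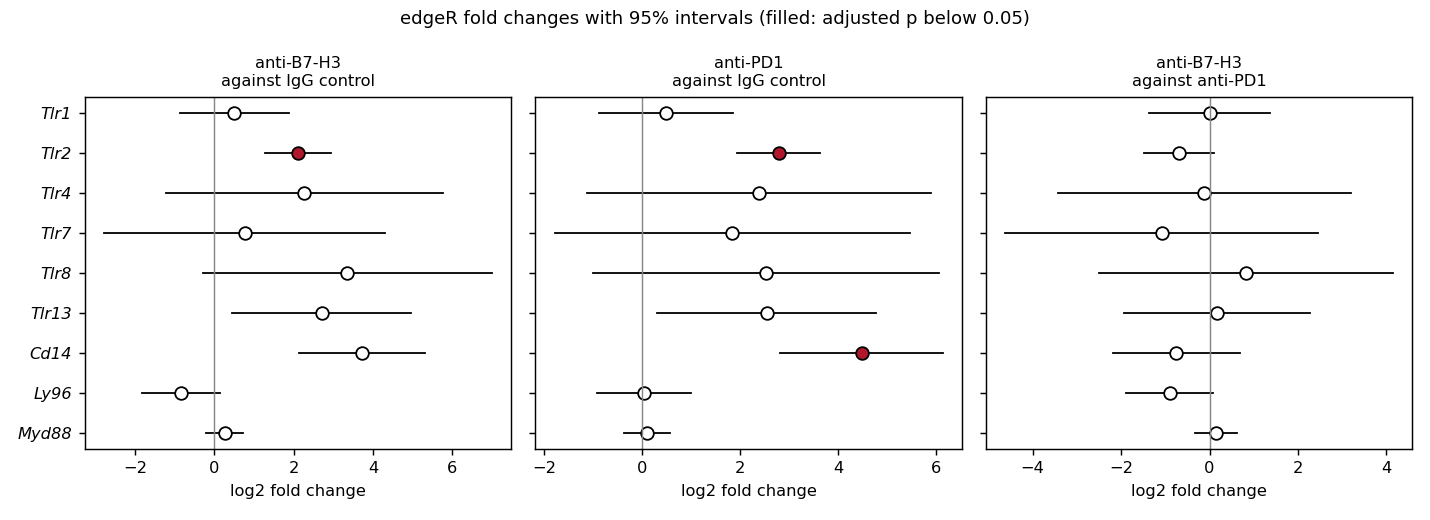
Log2 fold changes from edgeR with 95% intervals for the 9 tested genes, in anti-B7-H3 against IgG control (left), anti-PD1 against IgG control (middle) and anti-B7-H3 against anti-PD1 (right). Red points had an adjusted p below 0.05, as Tlr2 did in the left and middle panels and Cd14 in the middle panel only, and the wide intervals of Tlr4, Tlr7 and Tlr8 go with controls at 0.

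The antibodies were also compared with each other, although the labels state no dose or day of collection for either. None of the 9 genes passed, and each edgeR adjusted p was 1. Cd14 was lower with anti-B7-H3 than with anti-PD1 in every library, by a log2 difference of -0.76 ± 0.63 (95% interval -2.19 to 0.68). Tlr2 differed by -0.69 ± 0.36 (-1.48 to 0.11), without overlap, and anti-PD1 1 at 63.6 CPM was next to anti-B7-H3 1 at 62.8 CPM. Ly96 differed by -0.90 ± 0.44 (-1.88 to 0.08, unadjusted p = 0.0682) and Tlr7 by -1.08 ± 1.61 (-4.62 to 2.46), both without overlap. Each of these 4 intervals holds lower as well as higher values with anti-B7-H3, so that alike and unlike responses cannot be told apart at this number of libraries. Of the other genes, Myd88 had the narrowest interval, at 0.15 ± 0.21 (-0.32 to 0.62). Wider than that of Myd88 were the intervals of Tlr1 at 0.00 ± 0.62 (-1.36 to 1.37), Tlr13 at 0.16 ± 0.95 (-1.94 to 2.27), Tlr4 at -0.12 ± 1.46 (-3.43 to 3.20) and Tlr8 at 0.82 ± 1.51 (-2.50 to 4.15).

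Of the 5 other Toll-like receptor genes in the files, all were tested and none passed in any comparison. Tlr12, which with Tlr11 senses profilin of Toxoplasma, had 15.1, 9.90 and 21.1 CPM in anti-B7-H3 libraries, 9.86, 14.6 and 14.7 CPM in anti-PD1 libraries, and 9.52, 0.0619 and 10.4 CPM in IgG control libraries. Tlr6, the other partner of TLR2, had 3.34, 8.42 and 9.59 CPM in anti-B7-H3 libraries, 6.46, 7.73 and 0 CPM in anti-PD1 libraries, and 7.22, 0 and 9.34 CPM in IgG control libraries. It was at 0 in both libraries that stood apart. Tlr3, the receptor of viral RNA duplexes, varied within every group, from 0 to 2.77 CPM with anti-B7-H3, from 0 to 7.06 CPM with anti-PD1 and from 0.0519 to 5.21 CPM in the controls. Tlr5, the flagellin receptor, reached at most 1.13 CPM in any library. Tlr11 had 1, 0 and 0 counts in anti-B7-H3 libraries, 63, 0 and 0 in anti-PD1 libraries, and 19, 56 and 0 in IgG control libraries, so that most of its counts lay in 3 libraries. More than 3 counts were held by 9 to 10 of the 12 receptors in anti-B7-H3 libraries and by 7 to 12 in anti-PD1 libraries. In IgG control 1, 2 and 3 the numbers were 11, 4 and 5.

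Genes around the receptors were read from 7 lists of 124 genes, of which 123 were tested. Anti-B7-H3 against IgG control gave 11 called higher and 0 lower, and anti-PD1 gave 29 called higher and 0 lower, beside the shares of all genes given above. Between the antibodies edgeR called 0, and DESeq2 and limma-voom called 2 each. The anti-B7-H3 count was 20 without IgG control 2 and 6 without anti-B7-H3 2 or without anti-B7-H3 3. The anti-PD1 count was 14 to 19 without IgG control 1 or 3, without anti-B7-H3 2 or without anti-PD1 1, 2 or 3. Without IgG control 2 and anti-PD1 3 together 19 were called with anti-B7-H3, and 29 in the comparison of anti-PD1.

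Of 15 partners and chaperones of the receptors, 3 rose with anti-B7-H3 and 4 rose with anti-PD1. The median log2 fold change of the list was 1.03 for anti-B7-H3 and 1.15 for anti-PD1. Unc93b1, which carries nucleic acid receptors to endosomes, had 284, 215 and 198 CPM in anti-B7-H3 libraries, 235, 217 and 134 CPM in anti-PD1 libraries, and 65.3, 41.7 and 90.8 CPM in IgG control libraries. It rose by 1.82 ± 0.31 on the log2 scale with anti-B7-H3 and by 1.57 ± 0.31 with anti-PD1 (edgeR adjusted p = 0.0236 and 0.0289). Ly86, encoding the MD-1 partner of the receptor RP105, rose by 2.02 ± 0.36 with anti-B7-H3 and by 1.85 ± 0.36 with anti-PD1 (edgeR adjusted p = 0.0264 and 0.0270). The lysosomal protease gene Ctsl rose by 2.03 ± 0.38 with anti-B7-H3 and by 2.54 ± 0.38 with anti-PD1 (edgeR adjusted p = 0.0318 and 0.00689). Lgmn, which encodes another protease that trims endosomal receptors, rose by 1.73 ± 0.33 with anti-PD1, and its 1.25 ± 0.32 with anti-B7-H3 did not pass (edgeR adjusted p = 0.0234 and 0.167). The difference of Lgmn between the antibodies, -0.48 ± 0.32, did not pass.

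Of 22 adaptors and proximal kinases, 0 passed with anti-B7-H3 and 1 passed with anti-PD1. The list medians were 0.25 for anti-B7-H3 and 0.03 for anti-PD1, near those of all genes. The called gene was Map3k8, encoding the kinase Tpl2, at 1.43 ± 0.22 with anti-PD1 (edgeR adjusted p = 0.00776) and 0.97 ± 0.22 with anti-B7-H3 (adjusted p = 0.0874). Of 12 transcription factors, 3 rose with anti-B7-H3 and 4 rose with anti-PD1. Cebpb, which drives inflammatory and myeloid genes, rose by 2.22 ± 0.27 with anti-B7-H3 and by 2.79 ± 0.27 with anti-PD1 (edgeR adjusted p = 0.00383 and 0.000645). Spi1, encoding PU.1, the factor that specifies myeloid cells, rose by 1.90 ± 0.25 with anti-B7-H3 and by 2.07 ± 0.26 with anti-PD1 (edgeR adjusted p = 0.00615 and 0.00250). Irf5, which acts downstream of MyD88, rose by 1.25 ± 0.19 with anti-B7-H3 and by 1.23 ± 0.19 with anti-PD1 (edgeR adjusted p = 0.0118 and 0.00808). The NF-kB subunit gene Rel rose by 1.40 ± 0.30 with anti-PD1, and its 0.74 ± 0.30 with anti-B7-H3 did not pass (edgeR adjusted p = 0.0468 and 0.510). The list medians were 0.37 for anti-B7-H3 and 0.44 for anti-PD1.

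Of 22 inhibitors of the pathway, 1 rose with anti-B7-H3 and 5 rose with anti-PD1. Atf3, which represses cytokine genes after receptor stimulation, had 116, 92.1 and 116 CPM in anti-B7-H3 libraries, 123, 148 and 138 CPM in anti-PD1 libraries, and 15.2, 8.17 and 13.5 CPM in IgG control libraries. It rose by 3.13 ± 0.26 with anti-B7-H3 and by 3.46 ± 0.27 with anti-PD1 (edgeR adjusted p = 0.00104 and 0.000370). The list medians were 0.26 for anti-B7-H3 and 0.46 for anti-PD1. The other 4 with anti-PD1 were Socs3 (1.19 ± 0.19), Dusp1 (1.28 ± 0.21), Nfkbia (1.17 ± 0.22), which encodes the IkB-alpha inhibitor of NF-kB, and Zc3h12a (1.64 ± 0.35), which encodes a ribonuclease that degrades cytokine mRNA and was named after its value was seen.

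Of 31 tested target genes of the pathway, 4 rose with anti-B7-H3 and 13 rose with anti-PD1. The list medians were 1.62 for anti-B7-H3 and 2.03 for anti-PD1. Cxcl2, a chemokine gene of neutrophil recruitment, had 57.0, 68.9 and 63.5 CPM in anti-B7-H3 libraries, 170, 175 and 212 CPM in anti-PD1 libraries, and 7.97, 4.58 and 10.6 CPM in IgG control libraries. It rose by 3.03 ± 0.29 with anti-B7-H3 and by 4.58 ± 0.31 with anti-PD1 (edgeR adjusted p = 0.00159 and 0.000234). Il1b, the interleukin-1 beta gene, had 298, 350 and 509 CPM in anti-B7-H3 libraries, 977, 824 and 1139 CPM in anti-PD1 libraries, and 35.3, 6.99 and 48.3 CPM in IgG control libraries. It rose by 3.67 ± 0.60 with anti-B7-H3 and by 5.02 ± 0.64 with anti-PD1 (edgeR adjusted p = 0.0256 and 0.00531). The stress gene Ier3 rose by 2.33 ± 0.26 with anti-B7-H3 and by 2.97 ± 0.27 with anti-PD1 (edgeR adjusted p = 0.00261 and 0.000465). The chemokine gene Ccl3 rose by 1.61 ± 0.28 with anti-B7-H3 and by 2.11 ± 0.28 with anti-PD1 (edgeR adjusted p = 0.0236 and 0.00399). In the comparison between the antibodies the median of the 31 was -0.64, 16 had all anti-B7-H3 libraries below all anti-PD1 libraries, beside 6.4% of all tested genes, and edgeR called 0 of them. The reverse held for 1 of the 31, beside 7.13% of all tested genes. It was Il12b, an interleukin-12 subunit gene named after its values were seen. Of 16 other sensors of microbes, 0 passed with anti-B7-H3 and 2 passed with anti-PD1, the C-type lectin receptor genes Clec7a (3.36 ± 0.61) and Clec4d (3.29 ± 0.70).

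**Figure D4:**
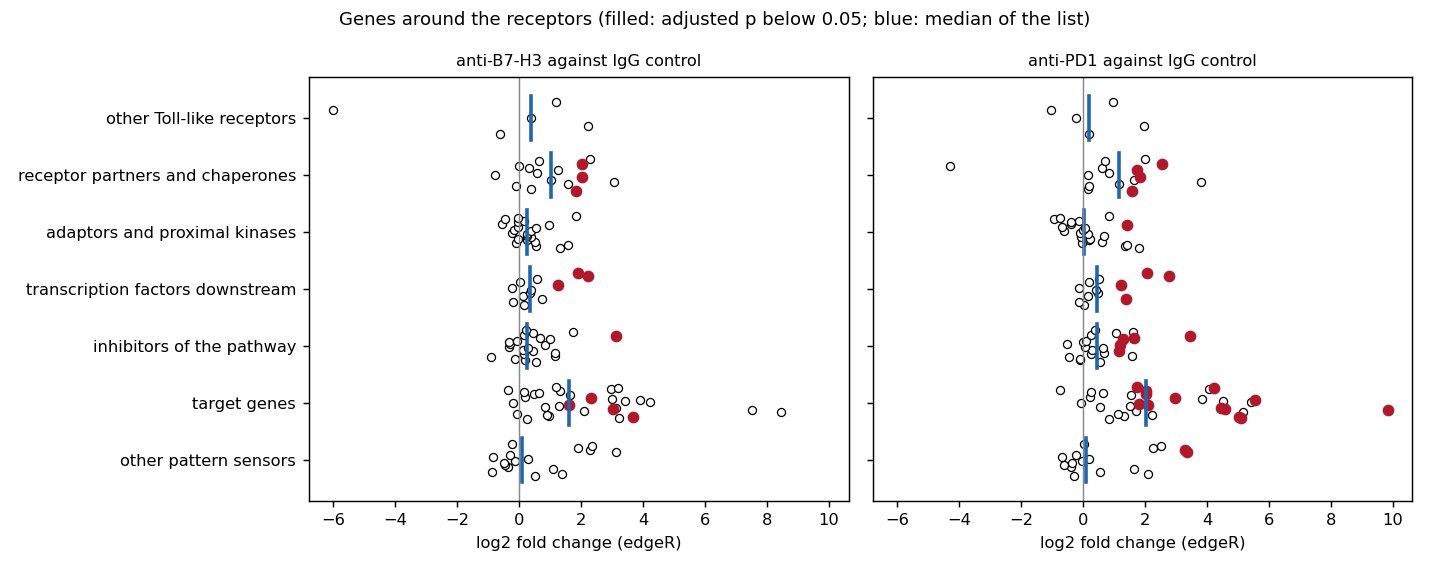
Log2 fold changes from edgeR of the tested genes of 7 lists around the receptors, for anti-B7-H3 (left) and anti-PD1 (right), each against IgG control, with 1 point a gene. Filled red points had an adjusted p below 0.05, and blue bars are list medians, which ran from 0.08 to 1.62 on the left and from 0.03 to 2.03 on the right, highest for the target genes. The far right points include Cxcl1, whose control libraries were all at 0, so that its fitted fold is no bound.

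Of the cell types that carry these receptors, macrophages, monocytes and neutrophils had higher summed markers with the antibodies, as did type 2 conventional dendritic cells. The summed markers of type 1 conventional and plasmacytoid dendritic cells overlapped the controls. The sum of 12 macrophage markers was 774 to 1395 CPM in anti-B7-H3 libraries, 750 to 1195 CPM in anti-PD1 libraries and 68.6 to 171 CPM in IgG control libraries, and 7 of the 12 were called higher with each antibody. The sum of 8 monocyte markers was 1586 to 2222 CPM in anti-B7-H3 libraries, 1352 to 2529 CPM in anti-PD1 libraries and 486 to 903 CPM in IgG control libraries, and only 1 of the 8 (Hp, the haptoglobin gene, named after its values were seen) was called with each antibody. Much of the higher monocyte sum was Chil3, at 0.0619 to 35.2 CPM in IgG control libraries and 332 to 1085 CPM in antibody libraries. Fn1 followed, at 5.45 to 58.3 CPM in the controls and 175 to 638 CPM with the antibodies. F13a1 and Hp were also above the controls in every antibody library, while Ly6c2, Ccr2, Plac8 and Vcan overlapped them. These markers too were named after their values were seen. The sum of 10 neutrophil markers was 322 to 540 CPM in anti-B7-H3 libraries, 757 to 1001 CPM in anti-PD1 libraries and 90.0 to 128 CPM in IgG control libraries, with 4 called higher with anti-B7-H3 and 5 called higher with anti-PD1. The sum of 7 markers of type 2 conventional dendritic cells was 447 to 582 CPM in anti-B7-H3 libraries, 473 to 594 CPM in anti-PD1 libraries and 94.5 to 164 CPM in IgG control libraries, with 2 called higher with each antibody. The 7 markers of type 1 conventional dendritic cells summed to 378 to 562 CPM with anti-B7-H3 and 471 to 574 CPM with anti-PD1. In IgG control libraries the sum was 494 to 580 CPM, and none of the 7 was called. Much of this sum was Itgae, at 324 to 351 CPM in IgG control libraries and 90.0 to 212 CPM in antibody libraries. Irf8, Batf3 and Cadm1 were above the controls in every antibody library, Xcr1 and Wdfy4 in every anti-PD1 library only, and Clec9a overlapped. Apart from Irf8, these genes were named after their values were seen. The list medians were 0.59 for anti-B7-H3 and 1.55 for anti-PD1. The plasmacytoid sums given above overlapped between the groups. The sum of 9 T cell markers was 5018 to 7468 CPM in anti-B7-H3 libraries, 4984 to 6144 CPM in anti-PD1 libraries and 5979 to 8606 CPM in IgG control libraries, and none of those markers was called. In IgG control 2, 4 of the 12 macrophage markers were at 0, as were Tlr7, Tlr8 and Tlr13. In IgG control 3, Tlr4, Tlr7 and Tlr8 were at 0 while 0 of the 12 macrophage markers were, and the mean log2 level of those markers (2.72) was near that of IgG control 1 (2.76), where these receptors had counts. In bulk samples fewer cells of a type and less RNA per cell cannot be told apart, and the part of these cell types in the results above was not tested.

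To set each gene beside the macrophage RNA of its own library, the mean log2 level of the 12 macrophage markers was subtracted from its log2 level. On this relative scale 4 of the 9 genes lay below the controls without overlap with anti-B7-H3, and 3 lay below and 1 above with anti-PD1. No share over all tested genes was computed on this scale, so such counts are no result about these genes. The marker mean itself was 1.17 to 2.76 in IgG control libraries and 5.17 to 6.03 in antibody libraries. A gene at equal CPM in every library would thus lie below the controls with either antibody. Ly96 differed from IgG control by -4.25 on the log2 scale with anti-B7-H3 and by -3.44 with anti-PD1, without overlap of the groups. Myd88 differed by -3.22 with anti-B7-H3 and by -3.38 with anti-PD1, and Tlr1 by -2.51 with anti-B7-H3 and by -2.50 with anti-PD1, again without overlap. Tlr2 lay at 0.00, 0.26 and 0.15 in anti-B7-H3 libraries, 0.02, 0.23 and 1.94 in anti-PD1 libraries, and 1.62, 2.02 and 0.79 in IgG control libraries, so that all anti-B7-H3 libraries were below the controls (a mean difference of -1.34), while the anti-PD1 libraries overlapped them (-0.75). Cd14 lay at 2.27, 2.84 and 1.94 in anti-B7-H3 libraries, 2.70, 2.63 and 3.94 in anti-PD1 libraries, and 2.08, 0.66 and 2.22 in IgG control libraries. Its difference was 0.70 with overlap for anti-B7-H3 and 1.44 without overlap for anti-PD1. Tlr4, Tlr7, Tlr8 and Tlr13 overlapped the controls in both comparisons, and no difference is given for them, since the control libraries where they had 0 counts lie at the added 0.5 CPM minus the marker mean. The marker mean of IgG control 2, with 4 markers at 0, rests partly on that constant too.

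Each difference without overlap had an exact two-sided permutation p of 0.1, the smallest that 3 against 3 libraries allow, and an adjusted p of 0.27 over 27 tests, so that none passes. Between the antibodies Tlr7 (-1.06) and Ly96 (-0.81) were lower with anti-B7-H3 without overlap on this scale. Without anti-PD1 3, the antibody library highest for Tlr2 and Cd14 on this scale, 4 genes in place of 2 did not overlap between the antibodies. The subtraction describes a ratio of RNA, so that a gene at equal CPM in every library lies lower wherever the macrophage markers lie higher.

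**Figure D5:**
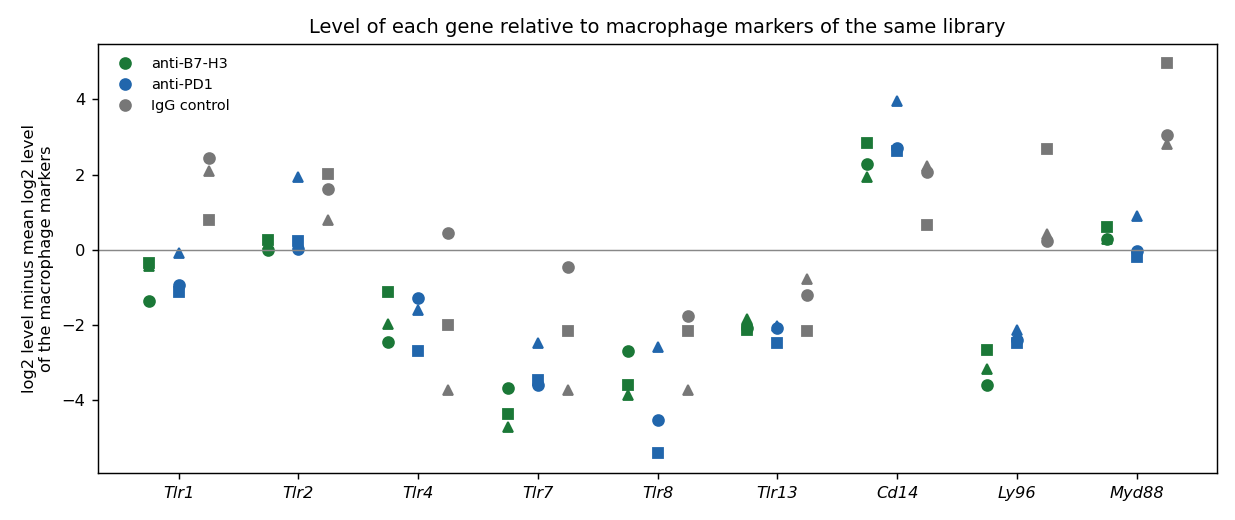
Level of each of the 9 tested genes in each library, as log2(CPM + 0.5) minus the mean log2(CPM + 0.5) of 12 macrophage markers of that library. Circles, squares and triangles are replicates 1, 2 and 3, with anti-B7-H3 in green, anti-PD1 in blue and IgG control in gray. Ly96, Myd88 and Tlr1 lay below the controls with both antibodies, and Cd14 lay above them in the anti-PD1 libraries. Control points of Tlr4, Tlr7, Tlr8 and Tlr13 with 0 counts are set by the added 0.5 CPM.

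The genes most like each member over the 9 libraries were found by the root mean square difference of centered log2(CPM + 0.5), among 9910 genes with a mean of at least 5 CPM. This is a description, in which all genes share the same 9 libraries and their depth. Nearest to Tlr2 were Cebpb (0.34) and Arhgef10l (0.39), where the median distance over all genes was 1.32. Nearest to Cd14 were Pltp and Tarm1 (0.41 each, median 2.38), and nearest to Tlr13 were Fcgr3, an Fc receptor gene (0.28), and Clec4a3, a C-type lectin gene (0.32, median 1.58). Tlr4 was nearest to Pla2g4a (0.46) and Il13ra1 (0.50, median 2.04), Tlr7 to Pard3 (0.42) and Dennd3 (0.55), and Tlr8 to Myof (0.55) and Disc1 (0.62). Tlr1 was nearest to Tcrg-C4, a gamma T cell receptor constant gene (0.14), and Fem1b (0.15). Ly96 was nearest to Zfp607a (0.20) and Fas (0.21), and Myd88 to Mpp1 (0.07) and Pttg1ip (0.08), all small distances that go with the small spread of these members (0.46 and 0.20 on the log2 scale). Tlr9 was too close to 0 for its distances to be read. Among the tested members themselves the closest pair was Ly96 with Myd88 (0.55). That distance exceeds the spread of either gene (0.46 and 0.20), so it describes small spreads and not a shared course over the libraries. Tlr2 with Tlr8 (0.78) and Tlr2 with Tlr7 (0.79) came next, and the farthest pair was Cd14 with Ly96 (2.56).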

How the data were processed

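RNA-seq libraries of sorted CD45+ cells were prepared, per the labels' protocols, with SMART-Seq v4, ribosomal RNA depletion and Nextera XT, which do not mark the strand. Per the submitters' processing notes, GRCm38 and FastQC 0.11.8 were used, and the quantifier is not given in the sources used here. The deposited files list, per the file headers, estimated counts and TPM for 58083 transcripts. GENCODE M21 assigned 57409 of them to genes, and 674 were not used. Estimated counts were summed for each of 22136 genes and rounded. All 9 libraries entered 1 edgeR 4.0.16 fit (R 4.3.3) with TMM, filterByExpr (13178 genes), group means and robust quasi-likelihood dispersions. P-values were adjusted by Benjamini and Hochberg over all tested genes, at a threshold of 0.05, and SE is the log2 fold change over the root of F. Reads were amplified without molecular identifiers, so floors of 3 counts cover counting error only. Alternatives (21 planned, 1 added after seeing the data, which leaves out IgG control 2 and anti-PD1 3) included DESeq2 1.42.0, limma-voom 3.58.1, other scalings and filters, and each library left out. The fit was tested on simulated data. The members and lists were chosen with earlier results of these data known. Named genes are the members, the other receptors, up to 4 genes of smallest p in each list and comparison, and the 2 nearest to each member. Motifs were searched on both strands, and the kB consensus replaced a narrower form after the windows had been read. The listed name Mb21d1 was read as Cgas.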

Additional observations from a re-analysis of the deposited data

How the results depend on the processing

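Calls of single genes depended on the setting. Tlr2 with anti-PD1 passed under all 22 alternatives (log2 2.16 to 3.27, highest adjusted p 0.0218). Tlr2 with anti-B7-H3 kept its direction (1.85 to 2.57) and missed the threshold under 10 of 22, Cd14 with anti-PD1 (3.81 to 4.87) under 8, and Cd14 with anti-B7-H3 (3.21 to 4.11) passed under 8. The number of members called with anti-B7-H3 was 2 with DESeq2, unscaled totals, the stricter filter, without mitochondrial, ribosomal, globin and antigen receptor genes, with dispersions not robust, and without IgG control 2 and anti-PD1 3 together. It was 0 with scaled TPM and with only the 6 libraries compared, and 0 to 2 with each library left out. With anti-PD1 it was 1 without the filter and with only the 6 libraries compared, and 1 to 3 with each library left out. Pathway genes called with anti-B7-H3 numbered 31 with DESeq2, 5 with only the 6 libraries compared, 19 without that pair, and 6 to 20 with each library left out. With anti-PD1 they numbered 44, 17 and, with each library left out, 14 to 32. Between the antibodies DESeq2 and limma-voom called 2 each. Relative to macrophage markers, members without overlap numbered 8 (anti-B7-H3) and 7 (anti-PD1) with a pseudocount of 2 CPM. Between the antibodies they numbered 2 to 4 with each library left out. The share of all genes on that scale was not computed. The same-numbered libraries correlated at -0.12 to 0.156, so the numbers were not taken as pairs. With the replicate block the members called were 0 (anti-B7-H3) and 1 (anti-PD1), pathway genes with anti-PD1 16, and Tlr4 between the antibodies turned to 0.43.

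Values near 0 changed sign. Between the antibodies Tlr1 was -0.03 with DESeq2 or its size factors, -0.01 with scaled TPM, -0.00 without the filter, with the stricter filter and without the gene classes named above, and -0.19 to 0.17 with each library left out. Tlr4 was -0.37 to 0.45 and Tlr13 -0.02 to 0.38 with each library left out, and Tlr13 was -0.13 with limma-voom and -0.02 without the pair. Against IgG control, Ly96 with anti-PD1 was -0.08 and Myd88 -0.01 with unscaled totals, and -0.09 to 0.40 and -0.02 to 0.30 with each library left out. Tlr1 was -0.02 and -0.05 without the pair, and Tlr7 with anti-B7-H3 was -2.31 with scaled TPM. The cause was not tested. Unscaled totals moved the median of all genes with anti-PD1 to -0.14. Genes near the floor of 3 counts, and 3 libraries a group, limit all of these values.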
